A study of Mus musculus with 7 samples.

Results

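Toll-like receptors are the membrane sensors by which macrophages detect microbial and viral molecules. Their levels were followed in RNA sequencing of RAW264.7 cells, a mouse macrophage-like line, in which the membrane dipeptidase gene Dpep2 had been targeted by short hairpin RNAs. The members were the 10 rows of the deposited count table, out of 55417 gene symbols, that carry the symbols Tlr1, Tlr2, Tlr4 and Tlr6 (receptors of the cell surface), Tlr3, Tlr7, Tlr8, Tlr9 and Tlr13 (receptors of the endosome) and Unc93b1 (the chaperone that carries the endosomal receptors out of the endoplasmic reticulum). The list follows receptor function, and it was drawn up with earlier results of these data known. All 10 were among the 13329 genes that passed the filter on low counts. The 3 other mouse receptor genes of this family, Tlr5, Tlr11 and Tlr12, had 0 counts in all 7 libraries. At these depths this allows up to 3 counts per library and covers counting error only.

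The 7 libraries formed 3 groups, all of RAW264.7 cells carrying a hairpin: shDpep2.968 (n = 2) and shDpep2.759 (n = 2), which target Dpep2, and the control hairpin shNT (n = 3). The labels name no stimulus, dose or time, and do not say whether a group is a clone or a pool or whether its replicates were separate cultures, so a p-value here reflects no more than the scatter among these libraries, and that scatter may be technical. Library totals ran from 16548648 to 18401060 counts. Levels are given as CPM, counts divided by the library total times edgeR's TMM scaling factor, then scaled to 1000000. The total used there was that of the tested genes, and the factors ran from 0.9694 to 1.0216. Dpep2 itself stood at 22.4 and 17.9 CPM under shDpep2.968, at 24.9 and 19.5 CPM under shDpep2.759, and at 55.6, 60.3 and 52.1 CPM with shNT. This was a fall to 37.8% of the shNT level (edgeR adjusted p = 8.07e-05). Each of 10 macrophage markers had counts, although Mertk had at most 6 in a library, and 2 of the 9 tested were called higher with the hairpins. Their summed level was 13070 to 13110 CPM with shDpep2.968, 14970 to 18330 CPM with shDpep2.759 and 12210 to 13610 CPM with shNT. The defining markers Cd3e (T cell), Ly6g (neutrophil), Col1a2 (fibroblast) and Epcam (epithelial cell) were at 0 in every library. The 5 neutrophil markers summed to 34.1 to 50.2 CPM, 99.9 to 236.8 CPM and 17.3 to 33.7 CPM in the same 3 groups. Nearly all of that was S100a8, which activated macrophages also make, while Elane and Mpo had at most 2 counts. The 5 dendritic cell markers summed to 1.21 to 1.61 CPM with shDpep2.968, 4.21 to 4.80 CPM with shDpep2.759 and 1.64 to 2.17 CPM with shNT. Most of the shDpep2.759 sum was Ccr7, at 0.35 to 0.64, 3.14 to 3.22 and 0.38 to 0.73 CPM in that order. Flt3 and Siglech had at most 2 counts in a library. The 5 T cell markers, nearly all Lck, summed to 6.16 to 6.94 CPM, 4.71 to 5.21 CPM and 4.11 to 4.99 CPM in the same order. The epithelial list stayed at 0.174 CPM or below. The 5 fibroblast markers summed to between 2.20 and 3.57 CPM with either hairpin and to between 0.725 and 1.64 CPM with shNT. Of the 2 fibroblast markers tested, 1 was called higher with the hairpins. The part of these marker levels in the receptor results was not tested. In bulk RNA, fewer cells of a type and less RNA per cell cannot be told apart.

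Surface receptors bind lipids and proteins of microbes: TLR2 pairs with TLR1 or TLR6 to bind bacterial lipopeptides, and TLR4 with its partner MD-2 binds lipopolysaccharide. Endosomal receptors bind nucleic acids after uptake: TLR3 binds double-stranded RNA, TLR9 binds unmethylated CpG DNA, and mouse TLR13 binds a sequence of bacterial ribosomal RNA. TLR7, and TLR8 as described in humans, are sensors of single-stranded RNA and its breakdown products. Most of these receptors signal through the adaptor MyD88, while TLR3 signals through TRIF and TLR4 uses both.

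With the Dpep2 hairpins, 4 of the 10 members rose and none fell: the endosomal receptors Tlr3 (1.93-fold), Tlr8 (2.20-fold) and Tlr13 (1.67-fold) and the surface receptor Tlr2 (1.33-fold). These folds average both hairpins against shNT, and the calls rest on edgeR's quasi-likelihood test with Benjamini-Hochberg adjusted p under 0.05 over all 13329 genes. Across the whole table the same test called 7.59% of genes, 3.44% higher and 4.15% lower. The 5 endosomal receptors all had positive log2 fold changes, from 0.24 to 1.13 with a median of 0.74. The 4 surface receptors ran from -0.01 to 0.41 with a median of 0.26. The median over all tested genes was 0.003. In 5 members (Tlr2, Tlr3, Tlr6, Tlr8 and Tlr13) all 4 hairpin libraries lay above all 3 shNT libraries, as they did for 9.03% of tested genes. For Tlr2 this rested on the TMM factors. In no member did the 4 hairpin libraries all lie below, as they did for 9.51% of tested genes. The other 5 overlapped.

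**Figure D1:**
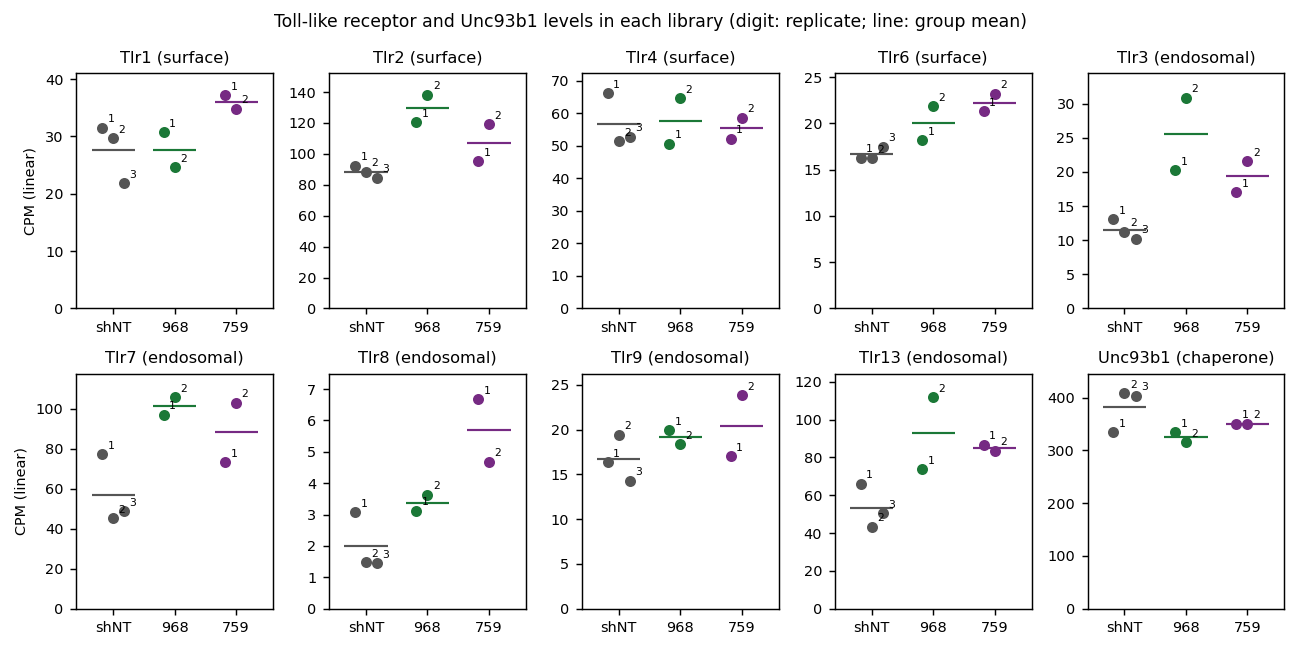
Level of each receptor gene and of Unc93b1 in each library, in CPM on a linear axis from 0; points are libraries marked with their replicate number, lines are group means, and each Dpep2 hairpin is shown by the number in its name. Tlr3 lies at 17.1 CPM or above in all 4 hairpin libraries and at 13.1 CPM or below in the 3 shNT libraries, while Tlr4 overlaps throughout.

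Tlr3 had the smallest p of the members. Its libraries read 20.2 and 30.9 CPM with shDpep2.968, 17.1 and 21.6 CPM with shDpep2.759, and 13.1, 11.2 and 10.2 CPM with shNT. All hairpin libraries were above all controls, and shDpep2.968 replicate 2 was the highest. Averaged over both hairpins the log2 fold change was 0.95 (SE 0.17, 95% interval 0.59 to 1.31, edgeR adjusted p = 0.0045). It was the member whose averaged call held whichever of the 7 libraries was omitted, with adjusted p from 0.00108 to 0.0486. Tlr3 rose 2.22-fold with shDpep2.968 (edgeR adjusted p = 0.00588) and 1.68-fold with shDpep2.759 (adjusted p = 0.0463). The first of these calls was lost without shDpep2.968 replicate 2 (adjusted p = 0.139), and the second when replicate 2 of shDpep2.759 (0.173), replicate 2 of shNT (0.167) or replicate 3 of shNT (0.216) was omitted.

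Tlr8 was the receptor with the lowest counts, 26 to 119 per library. Its libraries read 3.12 and 3.63 CPM with shDpep2.968, 6.68 and 4.69 CPM with shDpep2.759, and 3.08, 1.48 and 1.45 CPM with shNT. The groups did not overlap, but shNT replicate 1 lay just under shDpep2.968 replicate 1. The averaged log2 fold change was 1.13 (SE 0.29, 95% interval 0.52 to 1.75, edgeR adjusted p = 0.0303). With shDpep2.759 alone Tlr8 rose 2.85-fold (edgeR adjusted p = 0.0168), and with shDpep2.968 alone the fold change was 1.69 (adjusted p = 0.195). The averaged call was lost when replicate 2 or 3 of shNT, or any shDpep2.968 library, was omitted (adjusted p from 0.0572 to 0.172). The call with shDpep2.759 alone was lost without its replicate 1 (adjusted p = 0.0886), shNT replicate 2 (0.0780) or shNT replicate 3 (0.0972).

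Tlr13 stood at 73.8 and 111.7 CPM with shDpep2.968, at 86.7 and 83.5 CPM with shDpep2.759, and at 66.0, 43.4 and 50.4 CPM with shNT. All hairpin libraries were above the controls, and the largest gap within a group was between the shDpep2.968 replicates. The averaged log2 fold change was 0.74 (SE 0.17, 95% interval 0.37 to 1.11, edgeR adjusted p = 0.0243). Tlr13 rose 1.74-fold with shDpep2.968 (edgeR adjusted p = 0.0411), and its fold change with shDpep2.759 was 1.60 (adjusted p = 0.0826). The averaged call held without shDpep2.968 replicate 1 or shNT replicate 1 and was lost when any of the other 5 was omitted (adjusted p from 0.0501 to 0.138). The call with shDpep2.968 alone was lost without its replicate 2 (adjusted p = 0.383), shNT replicate 2 (0.132) or shNT replicate 3 (0.160).

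Tlr7, whose gene lies next to Tlr8 on the X chromosome, did not pass in the averaged comparison although its fold, 1.66, was near that of Tlr13. Its libraries read 96.9 and 105.8 CPM with shDpep2.968, 73.2 and 103.0 CPM with shDpep2.759, and 77.2, 45.2 and 48.8 CPM with shNT. The groups overlapped, as shNT replicate 1 lay above shDpep2.759 replicate 1. The averaged log2 fold change was 0.73 (SE 0.20, 95% interval 0.28 to 1.18, edgeR adjusted p = 0.0583). Without shNT replicate 1 it was 1.01 with an adjusted p of 0.00231, and without shDpep2.759 replicate 1 it was 0.84 (0.0282). DESeq2 called Tlr7 higher (adjusted p = 0.0011), as did limma-voom (0.0355), and over all alternatives its adjusted p ran from 1.43e-07 with no low-count filter to 0.239 without shNT replicate 3.

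In shNT replicate 1, Tlr7, Tlr8 and Tlr13 together summed to 146.2 CPM, against 90.1 and 100.6 CPM in the other shNT libraries and 166.6 to 221.2 CPM in the 4 hairpin libraries. That library was the highest control for 7 of the 10 members, and for 35.6% of all tested genes. The summed endosomal receptors followed the same order, at 175.7 CPM in shNT replicate 1, at 120.8 and 125.2 CPM in the other controls and at 200.7 to 270.4 CPM with the hairpins. The summed surface receptors overlapped, at 176.6 to 206.2 CPM with shNT and 205.9 to 249.3 CPM with the hairpins.

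Tlr9, the CpG DNA receptor, showed no call. Its libraries read 19.95 and 18.37 CPM with shDpep2.968, 17.1 and 23.8 CPM with shDpep2.759, and 16.4, 19.45 and 14.3 CPM with shNT. The groups overlapped, and the averaged log2 fold change was 0.24 (95% interval -0.08 to 0.57, edgeR adjusted p = 0.361). Unc93b1 was the most abundant member, at 334.6 and 315.0 CPM with shDpep2.968, at 350.7 and 350.6 CPM with shDpep2.759, and at 334.8, 407.9 and 403.4 CPM with shNT. Here shNT replicate 1 lay below the other controls and level with shDpep2.968 replicate 1. The averaged log2 fold change of Unc93b1 was -0.18 (95% interval -0.41 to 0.05, edgeR adjusted p = 0.351). Its interval thus ended below the smallest averaged log2 fold change among the 4 called receptors, 0.41. The difference between Unc93b1 and those receptors was itself not tested. GC content, the share of G and C bases, was 57.3% for Unc93b1 and 56.2% for Tlr9. The other members ran from 39.4% (Tlr4) to 49.3% (Tlr2). With a correction for GC content and length, the averaged log2 fold change was -0.03 for Unc93b1 and 0.36 for Tlr9. It was lower for Tlr3, at 0.79, and for Tlr13, at 0.65, and stayed at 0.41 for Tlr2. The part of GC content in this contrast was not tested.

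Among the surface receptors Tlr2 was the only member called. Its libraries read 120.5 and 138.2 CPM with shDpep2.968, 95.2 and 119.2 CPM with shDpep2.759, and 92.3, 88.4 and 84.7 CPM with shNT. The groups did not overlap, but shDpep2.759 replicate 1 lay close to the highest control. Without the TMM factors (0.9694 for that hairpin library) it would lie just below that control. The averaged log2 fold change was 0.41 (SE 0.11, 95% interval 0.18 to 0.65, edgeR adjusted p = 0.0373). Tlr2 rose 1.46-fold with shDpep2.968 (edgeR adjusted p = 0.0279), and its fold change with shDpep2.759 was 1.21 (adjusted p = 0.261). The averaged call held without shDpep2.968 replicate 1 or shDpep2.759 replicate 1 and was lost when any of the other 5 was omitted (adjusted p from 0.0593 to 0.211). Limma-voom did not call it (adjusted p = 0.0508), and over all alternatives its adjusted p ran from 0.00833 to 0.292. With shDpep2.968 alone the call held without either shDpep2.759 library or shNT replicate 1 and was lost in the other 4 fits (adjusted p from 0.0503 to 0.294).

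The TLR2 partners Tlr1 and Tlr6 did not pass. Tlr6 stood at 18.2 and 21.9 CPM with shDpep2.968, at 21.3 and 23.2 CPM with shDpep2.759, and at 16.3, 16.3 and 17.5 CPM with shNT, so that all hairpin libraries were above all controls. Its averaged log2 fold change was 0.34 (SE 0.12, 95% interval 0.08 to 0.60, edgeR adjusted p = 0.106). Tlr1 stood at 30.8 and 24.6 CPM with shDpep2.968, at 37.2 and 34.8 CPM with shDpep2.759, and at 31.5, 29.7 and 21.8 CPM with shNT. The shDpep2.968 libraries lay within the control range and the shDpep2.759 libraries above it. The averaged log2 fold change of Tlr1 was 0.19 (95% interval -0.12 to 0.50, edgeR adjusted p = 0.463). Tlr4, the lipopolysaccharide receptor, overlapped in every group, at 50.7 and 64.6 CPM with shDpep2.968, at 52.2 and 58.6 CPM with shDpep2.759, and at 66.1, 51.4 and 52.7 CPM with shNT. Its averaged log2 fold change was -0.01 (95% interval -0.28 to 0.27, edgeR adjusted p = 0.986), and the interval covers folds from 0.825 to 1.203.

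Tlr1 and Tlr6 are neighbouring paralogs, and how their reads were divided is uncertain. Of the distinct 31-letter words in the GENCODE M21 transcripts of Tlr1, 18.3% also occurred in those of Tlr6, and 16.4% of those of Tlr6 occurred in Tlr1. No other pair of members shared any such word. The longest identical coding run was 229 bases, from coding base 1468 to 1696 of Tlr1 and from 1507 to 1735 of Tlr6 in that annotation. It is shown because a read within it cannot be assigned to either gene by its letters.
Tlr1 and Tlr6 shared run: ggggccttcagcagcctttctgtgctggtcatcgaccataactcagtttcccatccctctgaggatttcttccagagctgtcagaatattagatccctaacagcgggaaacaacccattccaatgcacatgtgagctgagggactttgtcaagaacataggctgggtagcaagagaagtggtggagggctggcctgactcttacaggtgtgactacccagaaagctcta

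**Figure D2:**
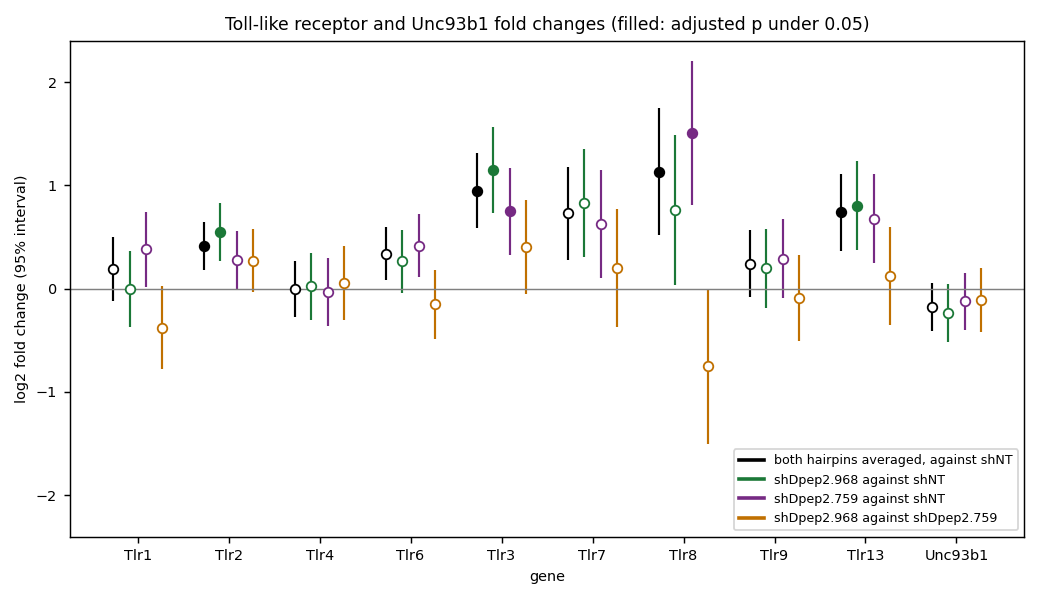
Log2 fold change of each member with its 95% interval in the 4 comparisons, on a vertical axis in log2 units; filled points had an edgeR adjusted p under 0.05. Tlr3 is filled in all 3 comparisons with shNT, and no point is filled between the hairpins.

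With shDpep2.968 alone 3 members rose (Tlr2, Tlr3 and Tlr13), where 5.25% of tested genes were called and 2.29% were higher. That comparison's 700 calls ran from 69 without shDpep2.968 replicate 2 to 1309 without shDpep2.759 replicate 2. With shDpep2.759 alone 2 rose (Tlr3 and Tlr8), where 4.73% were called and 2.72% were higher. No member was called lower with either hairpin, against 2.96% and 2.00% of tested genes. These comparisons share the shNT libraries. Between the hairpins no member passed edgeR's test, where 0.840% of tested genes were called in either direction. That share is 112 genes, and it ran from 6 genes without shDpep2.968 replicate 2 to 1070 without shDpep2.759 replicate 2, with no member called in any of the 7 fits that omit a library. DESeq2 and limma-voom called none of the 10 either. An unadjusted p under 0.05 was found for 1 of the 10 members and for 2002 of the 13329 tested genes. The member was Tlr8, with a log2 difference of shDpep2.968 against shDpep2.759 of -0.75, a fold of 0.594 (95% interval 0.354 to 0.999, edgeR adjusted p = 0.333). The difference was 0.40 for Tlr3 (95% interval -0.05 to 0.85), 0.27 for Tlr2 (-0.03 to 0.58), 0.13 for Tlr13 (-0.35 to 0.60) and -0.38 for Tlr1 (-0.78 to 0.02). These intervals leave room for differences between the hairpins of up to 1.81-fold for Tlr3, and the calls that a single hairpin made are not shown to differ from those of the other.

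**Figure D3:**
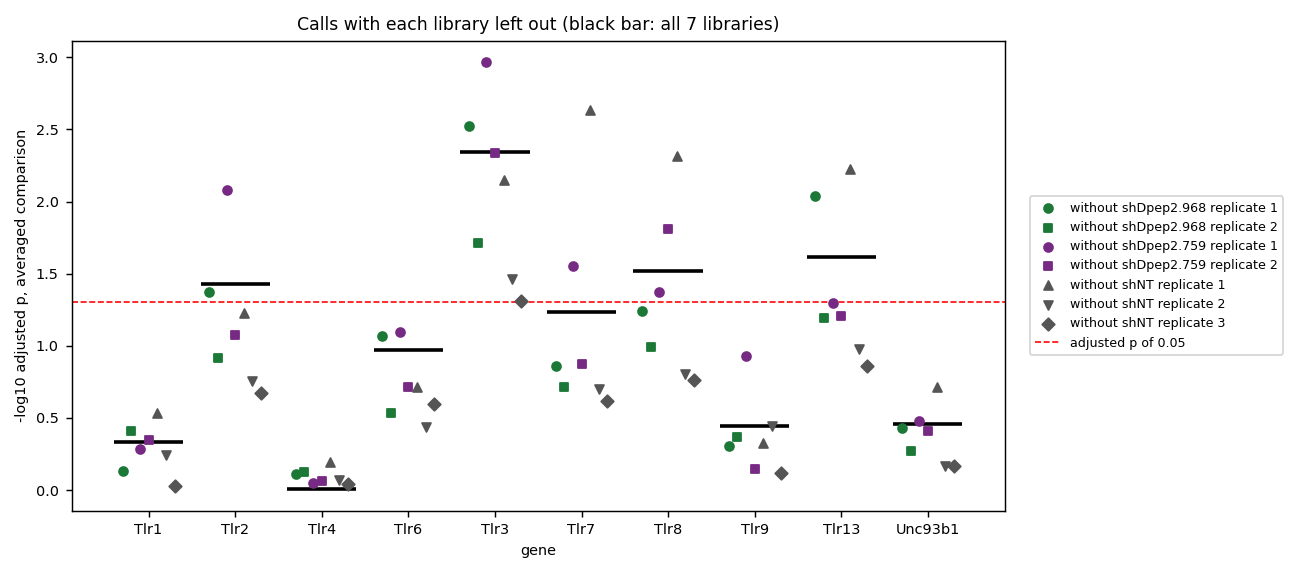
Evidence for each member in the averaged comparison with each library left out in turn, as -log10 of the edgeR adjusted p on the vertical axis; the black bar uses all 7 libraries and the dashed line marks 0.05. Tlr3 stays above the line in all 7 fits, and Tlr7 crosses it without shNT replicate 1 or shDpep2.759 replicate 1.

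With shNT replicate 2, shNT replicate 3 or shDpep2.968 replicate 2 omitted, Tlr3 was the only member called in the averaged comparison. Over the whole table the number of called genes fell as well, from 1012 to 356, 321 and 492 in those 3 fits. Without shDpep2.759 replicate 2, Tlr3 and Tlr8 were called. With all hairpin libraries fitted as 1 group, Tlr3 and Tlr13 were.

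Promoter letters were read from RefSeq's table for GRCm38.p6, which held 7 of the 10 members (Tlr1, Tlr2, Tlr3, Tlr6, Tlr8, Tlr9 and Tlr13). The windows run from 250 bases before to 50 bases after an annotated start. They are shown for the 4 members called in the averaged comparison, a choice made by the threshold alone. Positive averaged log2 fold changes were found in 8 of the 10 members, so direction does not set these 4 apart. Capitals mark matches on either strand to the NF-kB consensus, to the interferon-stimulated response element (GAAA, any 2 bases, GAAA), to the PU.1 motif GAGGAAGT or to the interferon-gamma-activated sequence TTCNNNGAA. The NF-kB consensus was added after the windows had been read.
Tlr2 (chr3:83841559-83841858, minus strand): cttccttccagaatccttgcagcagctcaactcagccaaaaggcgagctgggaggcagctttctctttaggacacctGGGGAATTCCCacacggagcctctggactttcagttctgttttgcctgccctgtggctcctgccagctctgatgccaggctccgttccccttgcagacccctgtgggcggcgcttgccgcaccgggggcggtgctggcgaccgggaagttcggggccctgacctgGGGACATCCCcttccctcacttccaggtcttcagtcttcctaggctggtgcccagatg
Tlr3 (chr8:45410331-45410630, minus strand): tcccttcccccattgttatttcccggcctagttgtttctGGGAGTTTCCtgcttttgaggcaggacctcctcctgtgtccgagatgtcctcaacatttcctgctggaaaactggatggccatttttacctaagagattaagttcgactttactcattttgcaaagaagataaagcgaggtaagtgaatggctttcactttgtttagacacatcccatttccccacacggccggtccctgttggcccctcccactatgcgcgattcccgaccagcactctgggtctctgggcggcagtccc
Tlr8 (chrX:167264280-167264579, minus strand): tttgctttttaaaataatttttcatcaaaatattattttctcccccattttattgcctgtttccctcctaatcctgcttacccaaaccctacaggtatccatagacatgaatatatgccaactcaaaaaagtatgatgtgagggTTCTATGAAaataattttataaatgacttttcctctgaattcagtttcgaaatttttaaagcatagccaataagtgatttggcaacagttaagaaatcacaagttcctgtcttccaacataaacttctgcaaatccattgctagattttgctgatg
Tlr13 (chrX:106143025-106143324, plus strand): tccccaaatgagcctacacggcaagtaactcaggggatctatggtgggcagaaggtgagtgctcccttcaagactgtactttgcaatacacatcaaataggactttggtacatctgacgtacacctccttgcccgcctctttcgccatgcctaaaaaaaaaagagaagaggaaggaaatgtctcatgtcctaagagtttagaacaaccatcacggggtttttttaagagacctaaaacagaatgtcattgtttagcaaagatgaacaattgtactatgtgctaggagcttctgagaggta

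The Tlr2 window held the NF-kB consensus in a pair of overlapping matches at -173 to -163, counted with the annotated start at 0, and again at -8 to 1. The Tlr3 window held it at -211 to -202. Of the 32851 windows in the table, 4.505% held that consensus. As the consensus was added after these windows had been read, that share is no test of the matches. The Tlr8 window held the interferon-gamma-activated sequence at -106 to -98, found in 8.30% of windows, among the members also in windows of Tlr1 and Tlr6, and the Tlr13 window held none of the 4 motifs. The interferon-stimulated response element, in 3.44% of windows, occurred among the members in a window of Tlr6, as overlapping matches from -116 to -101. The PU.1 motif, in 3.20% of windows, occurred in windows of Tlr1 and Tlr9. These matches describe letters only; binding was not measured.

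Levels were compared between members per length, as counts per kilobase of the median GENCODE M21 transcript length scaled to a sum of 1000000 per library. In shNT the order of these per-length levels was Unc93b1 at 525 ± 54.6 (SD, n = 3), Tlr4 at 48.9 ± 7.24, Tlr7 at 32.1 ± 9.98, Tlr2 at 31.7 ± 1.36, Tlr13 at 26.2 ± 5.85, Tlr3 at 17.6 ± 2.26, Tlr1 at 10.8 ± 1.97, Tlr6 at 8.76 ± 0.426, Tlr9 at 5.19 ± 0.752 and Tlr8 at 4.42 ± 2.07. The chaperone was thus above every receptor. Of the 45 pairs of members 40 did not overlap over the 3 shNT libraries. The pairs that overlapped were Tlr7 with Tlr2, Tlr7 with Tlr13, Tlr2 with Tlr13, Tlr1 with Tlr6, and Tlr9 with Tlr8. The median is pulled down by short annotated transcripts, to 707 bases for Tlr3 against 4407 for its longest. With coding lengths Tlr2 led the receptors at 42.9 ± 1.64 and Tlr3 ranked 9 of 10, at 4.84 ± 0.597, above only Tlr8 at 0.738 ± 0.342. In 33 pairs the order held without overlap under the median, longest and coding lengths. Among them, Unc93b1 was above all 9 receptors, and Tlr2, Tlr4, Tlr7 and Tlr13 were each above Tlr1, Tlr3, Tlr6, Tlr8 and Tlr9.

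The genes around the receptors were counted in lists chosen by function, from the averaged comparison. Each count below stands beside 7.59% of all tested genes called there, 3.44% higher and 4.15% lower. No list was tested as a set. Of 6 tested co-receptor and binding-partner genes 2 rose and none fell, with a median log2 fold change of 0.16. Cd36, a scavenger receptor that assists TLR2 with TLR6, rose 1.83-fold (edgeR adjusted p = 0.00257), from 539.3, 385.3 and 412.1 CPM with shNT to 635.4 and 802.4 CPM with shDpep2.968 and 918.1 and 935.9 CPM with shDpep2.759. Cd180, a receptor-like protein that modulates TLR4 signalling in B cells and macrophages, rose 1.60-fold (edgeR adjusted p = 0.0067). It stood at 69.0, 55.3 and 47.8 CPM with shNT and at 81.5 to 106.3 CPM with the hairpins. Cd36 was called whichever library was omitted, and Cd180 unless shNT replicate 2 or 3 was. Cd14, which hands lipopolysaccharide to TLR4, had a log2 fold change of -0.06 at a mean of 2005 CPM, and Ly86, the partner of the CD180 protein, of 0.16 at 61.6 CPM. Neither passed.

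Of 12 genes for receptor folding and trafficking 1 rose and none fell, with a median log2 fold change of 0.06. Ap3d1, a subunit of the AP-3 sorting complex, rose 1.30-fold (edgeR adjusted p = 0.0432), and that call held with 1 omission out of 7, that of shDpep2.759 replicate 1. Hsp90b1, the chaperone needed for folding of most of these receptors, had a log2 fold change of 0.19 and Tmed7 of -0.29, neither past the threshold. None of 10 genes for endolysosomal proteases and nucleases, which trim the receptors or prepare their ligands, passed edgeR's test, and 3 had an unadjusted p under 0.05, as did 22.9% of all tested genes. Ctsb had a log2 fold change of 0.33 (adjusted p = 0.0917) and Ctsl of -0.15.

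**Figure D4:**
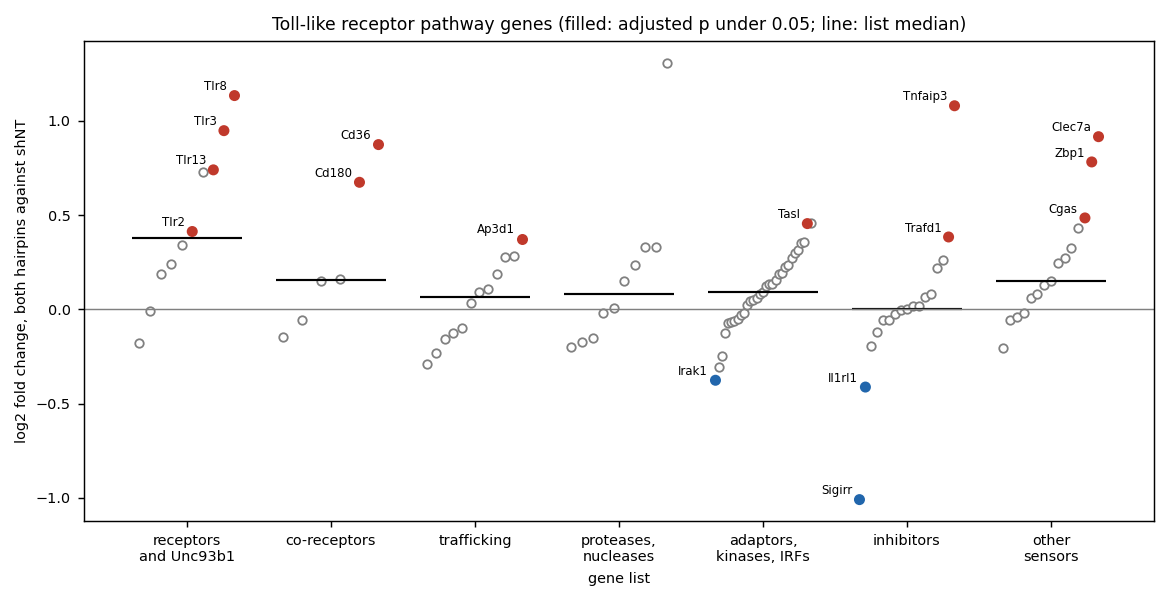
Log2 fold change, both hairpins averaged against shNT, of every tested gene in the receptor list and 6 pathway lists; points are genes in order of fold change, filled and named points had an edgeR adjusted p under 0.05, and lines are list medians. The list medians of the pathway genes lie between 0.00 and 0.16, below 0.38 for the 10 members.

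Of 31 adaptors, kinases and transcription factors that relay the signal, 1 rose and 1 fell, with a median log2 fold change of 0.09. Tasl, the adaptor that links endosomal receptors to the transcription factor IRF5, rose 1.37-fold (edgeR adjusted p = 0.0342), from 32.9, 25.7 and 27.4 CPM with shNT to 40.4 and 42.2 CPM with shDpep2.968 and 38.5 and 36.3 CPM with shDpep2.759. Irak1, a kinase downstream of MyD88, fell by 0.38 on the log2 scale (edgeR adjusted p = 0.0473). The Tasl call held with 3 and the Irak1 call with 2 of the 7 omissions. Both were lost when replicate 2 or 3 of shNT, or replicate 2 of shDpep2.968, was omitted, Tasl also without shDpep2.968 replicate 1, and Irak1 also without shDpep2.759 replicate 2 or shNT replicate 1. Irf7 had a log2 fold change of 0.23 and Pik3ap1 of 0.19, neither past the threshold.

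Of 17 inhibitors of the pathway 2 rose and 2 fell, with a median log2 fold change of 0.00. Tnfaip3, the deubiquitinase A20, rose 2.11-fold on average (edgeR adjusted p = 0.000138). It stood at 20.0, 20.8 and 21.4 CPM with shNT, while shDpep2.968 gave 31.9 and 34.0 CPM and shDpep2.759 gave 56.0 and 60.4 CPM, and its log2 difference between the hairpins was -0.82 (edgeR adjusted p = 0.0173). Sigirr, an inhibitory receptor of the same superfamily, fell by 1.01 on the log2 scale (edgeR adjusted p = 0.00162), from 11.5, 14.7 and 14.8 CPM with shNT to between 5.80 and 7.52 CPM with the hairpins. Both were called whichever library was omitted. Trafd1 rose 1.30-fold and Il1rl1 fell by 0.41 on the log2 scale (edgeR adjusted p = 0.0389 and 0.0443). Trafd1 encodes a feedback inhibitor of receptor signalling and Il1rl1 the IL-33 receptor ST2, which also limits it. Each of these 2 calls held in 1 of the 7 fits, that without shDpep2.759 replicate 2. Nfkbia, the NF-kB inhibitor, had a log2 fold change of 0.02 and the phosphatase gene Ptpn6 of -0.12, neither past the threshold.

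Of 15 sensors of other families 3 rose and none fell, with a median log2 fold change of 0.15. Zbp1, a sensor of Z-form nucleic acids, rose 1.72-fold (edgeR adjusted p = 0.00162) and was called whichever library was omitted. Clec7a, the beta-glucan receptor Dectin-1, rose 1.89-fold (edgeR adjusted p = 0.0119) at a mean of 4.21 CPM, and Cgas, the cytosolic DNA sensor, rose 1.40-fold (adjusted p = 0.0305). The Clec7a call was lost when the same 3 libraries as for Tasl and Irak1 were omitted in turn, and the Cgas call held only without shDpep2.759 replicate 1 or shNT replicate 1. Rigi, a cytosolic RNA sensor, and the lectin Clec4d had log2 fold changes of 0.27 and 0.24, neither past the threshold.

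For each called receptor, the 3 tested genes with a mean of at least 5 CPM whose profile over the 7 libraries lay nearest were listed, by the root mean square difference of log2 CPM centred on each gene's own mean. The candidates numbered 9992 for Tlr2, Tlr3 and Tlr13 and 9993 for Tlr8. Nearest to Tlr3 were Slfn8 (0.110), Maml2 (0.126) and Cxcl3 (0.151). Nearest to Tlr13 were Ifit2 (0.10), Blnk (0.117) and Fpr2 (0.121), nearest to Tlr8 were Edn1 (0.187), Pdpn (0.190) and Pilra (0.213), and nearest to Tlr2 were Baz1a (0.039), B4galt1 (0.044) and Smarcc1 (0.048). These differences are in log2 units and describe 7 libraries of 3 groups made with the same kit at like depth, with no test.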

How the data were processed

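RNA was sequenced from 7 RAW264.7 libraries, prepared with a stranded total-RNA kit per the labels' protocols. The authors deposited 1 table of whole-number counts per gene symbol. Per the submitters' processing notes, Trim Galore, Salmon and hg38 were used, although the symbols are mouse. For the annotation, the strand setting and any rounding of estimated counts, the sources used here give nothing. CPM was the count over the library total of the tested genes times its TMM factor (0.9694 to 1.0216), scaled to 1000000. Counts were tested with edgeR 4.0.16 in R 4.3.3 (filterByExpr, TMM, robust quasi-likelihood fit with 4 residual degrees of freedom, 1 mean per group, Benjamini-Hochberg over 13329 genes). The biological coefficient of variation was 13.8%. Libraries of a group differed beyond counting noise (between 14.2 and 41.0 for chi-square divided by its degrees of freedom). Alternatives were other scalings, filters, DESeq2 1.42.0, limma-voom 3.58.1, a non-robust fit, the replicate number as a block, a GC and length correction (a length was found for 95.7% of tested genes), other groupings and leaving out each library. Other lengths were tried for levels per length. Named genes were all members, list genes past the threshold (at most 6 a list), the 2 most abundant others of each list, and the 3 nearest profiles of each called member. The members and lists were chosen with earlier results of these data known.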

Additional observations from a re-analysis of the deposited data

How the results depend on the processing

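Tlr3 kept its averaged call under all 18 alternatives. Its call with shDpep2.759 alone was also lost with limma-voom (adjusted p = 0.0833). In edgeR it was lost without robust estimation (adjusted p = 0.0656) and with the replicate number as a block (0.163). The members called in the averaged comparison numbered 4, against 2 with all hairpin libraries as 1 group and 1 to 4 with a library left out. They numbered 5, with Tlr7 added, with no low-count filter, with DESeq2, without robust estimation and with the GC and length correction. Limma-voom called 4, with Tlr7 in place of Tlr2. For shDpep2.968 they numbered 3, against 0 to 5 with a library left out. For shDpep2.759 they numbered 2, against 4 with no low-count filter, 4 with DESeq2, 1 with limma-voom, 1 without robust estimation and 0 to 4 with a library left out. Between the hairpins every alternative gave 0. With the replicate number as a block, 1 member was called in the averaged comparison, 1 with shDpep2.968 and 1 with shDpep2.759. Same-numbered libraries correlated between -0.225 and 0.071 in their deviations from group means. In the groups of 2 libraries these deviations mirror each other, so few of the correlations are independent. They cannot show whether same-numbered libraries share a batch or culture, which the labels do not state. The pathway lists held 12 calls, against 4 with the block, 30 with the GC and length correction, 6 with 1 hairpin group and 4 to 16 with a library left out. Over all genes the averaged count was 1012, against 1590 with no low-count filter, 404 with the block, 2182 with the GC and length correction, 540 with 1 hairpin group and 321 to 1468 with a library left out. For shDpep2.968 it was 700, against 1443, 308 and 1705 under the first 3 of these, 1350 with the compared groups only and 69 to 1309 with a library left out. For shDpep2.759 it was 630, against 1131, 312 and 1678, and 253 to 768. Between the hairpins it was 112 (34 higher), against 669 with no low-count filter, 541 (232 higher) with the GC and length correction, 376 (157 higher) with DESeq2, 54 with limma-voom, 63 without robust estimation, 61 with the compared groups only and 6 to 1070 with a library left out.

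The sign of uncalled log2 values turned in these cases, and the cause was not tested. Tlr4 ranged from -0.10 to 0.12 (averaged), -0.17 to 0.20 (shDpep2.968), -0.13 to 0.09 (shDpep2.759) and -0.13 to 0.23 (between hairpins) with a library left out. With shDpep2.968 it was -0.034 with the block and -0.24 with the GC and length correction, which gave -0.15 between the hairpins. Between the hairpins Tlr13 ranged from -0.21 to 0.41, Tlr7 from -0.022 to 0.48 and Tlr9 from -0.31 to 0.18, and Tlr1 with shDpep2.968 from -0.16 to 0.15, with a library left out. Depth limits Tlr8 most, at 26 to 119 counts a library.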
